A study of Drosophila melanogaster with 31 samples.

Results

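The Toll and Imd pathways are the NF-kB signalling routes of Drosophila. They were described here through 33 genes for ligand, proteases, recognition proteins, receptors, adaptors, kinases, inhibitors and transcription factors, without the antimicrobial peptides. The genes were picked by name, and 33 of the 34 names listed were rows of the table of 9251 genes holding ovary transcript levels. PGRP-SC2 was not analysed here. All 33 passed the filter on low values, which asked for at least 1 TPM in 2 or more libraries, in both sets of libraries described below.

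In the Toll route, serine proteases cleave the ligand Spätzle (spz), which binds the receptor Toll (Tl). The adaptors Myd88 and Tube and the kinase Pelle then release the transcription factors Dorsal (dl) and Dif from the inhibitor Cactus (cact). The ovary loads mRNA of spz, Tl, tub, pll, cact and dl into the egg, where this route sets the dorsal-ventral axis of the embryo, while Dif is best known from immunity in the fat body. In the Imd route, peptidoglycan receptors act through Imd, Fadd, the caspase Dredd and the kinase complexes of Tak1 and Key on the transcription factor Relish (Rel).

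The data are RNA-seq libraries made from poly(A) RNA of fly ovaries. Total mRNA came from 8 groups of 2 libraries. Young wild type ovaries were taken 0 to 3 h after eclosion, and those of the remaining groups 1 to 3 days after it. Young and adult wild type both carry UAS-Dcr-2 and GAL4-nos.NGT, a Dicer-2 transgene with a germline nanos driver, so neither is an unmodified strain. The tst mutant is tstMB10212 over Df(3R)Exel9013 and tst RNAi is UAS-Dcr2;nosGAL4>tst RNAi, both set against adult wild type. The pelo mutant is pelo1/pelo1, against pelo1/CyO. The hfp mutant is hfp9/hfp9, against hfp9/TM2, so these references carry 1 mutant allele and a balancer. Polysome RNA and its input, the total mRNA of the same preparation, came from 2 preparations each of pelo mutant, tst RNAi and control ovaries. Control preparation 1 has the UAS-Dcr-2 and nos-GAL4 genotype and control preparation 2 is pelo1/CyO, so control replicates differ in genotype. Single libraries came from the input and the polysomes of nosGAL4>bam RNAi ovaries and from ovaries of the bamΔ86 mutant, both of which lack the differentiation factor Bam.

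Between 7233 and 8675 genes reached 1 TPM (a transcript's share of its library, scaled by gene length) in a library. Read depth is not known from TPM values. Germ cell markers (10 genes) summed to 589 to 3921 TPM, with the germ cell gene vas at 90.8 to 553 TPM. The oocyte mRNA osk was at 4.64 TPM in bam mutant ovaries and at 2.46 TPM in the input of bam RNAi, but at 479.5 TPM in the library labelled bam RNAi polysomes. That library also had bam at 18.89 TPM, against 41.2 and 11.8 TPM in control polysomes, so its target gene and oocyte mRNA went against its label. The targeted genes had lower values in their own groups. For tst, mutant ovaries had 6.34 and 8.62 TPM and RNAi ovaries 6.77 and 11.7 TPM, against 35.3 and 39.6 TPM in adult wild type, and 17.97 and 14.4 TPM in tst RNAi inputs against 32.4 and 30.3 TPM in control inputs. For pelo they were 10.8 and 44.6 TPM in the mutant against 45.1 and 90.5 TPM in its heterozygote, and 33.1 and 34.4 TPM in mutant inputs against 137 and 76.9 TPM. The hfp mutant had 9.29 and 20.8 TPM of hfp, against 25.8 and 48.1 TPM, and for bam the single RNAi input had 3.095 TPM and the mutant library 5.61 TPM, against 65.1 and 40.1 TPM in control inputs. In total mRNA no targeted gene passed the limma test in its own group without a block, while with the replicate number as a block each did, at adjusted p = 4.98e-04 for tst in the mutant, 0.00184 for tst in RNAi, 0.0076 for pelo and 0.0058 for hfp. RNA of other tissues also differed between groups. Muscle markers (11 genes) summed to 5327 to 6976 TPM in young wild type, 1448 to 2500 in the tst mutant, 2826 to 2939 in tst RNAi and 309 to 460 in adult wild type, to 1855 to 2061 in the pelo mutant against 228 to 702 in its heterozygote, and to 1380 to 2299 in the hfp mutant against 273 to 469 in its heterozygote. Gut markers (6 genes) stood at 702 TPM in 1 pelo mutant library and 6.17 TPM in the other. Every fold change below is a difference of mean log2(TPM + 1) from a limma fit over all genes, with its standard error (SE) and a Benjamini-Hochberg adjusted p, and "rose" or "fell" marks an adjusted p under 0.05. With 2 libraries a group and nothing said on whether they came from separate animals, the p values measure only the spread between these libraries. In whole ovaries, fewer cells of a type and less RNA per cell cannot be told apart.

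Transcripts of the signalling core were abundant in ovaries, and those of recognition proteins and most extracellular proteases were rare. Over the 30 libraries other than the bam mutant, 21 of the 33 genes had at least 1 TPM in every library. By median level 20 genes had 10 TPM or more and 15 lay above the median of all genes, 29.6 TPM. The highest median belonged to akirin, a nuclear cofactor of Relish, at 431 TPM (range 189 to 841). Next came cact at 130.3 TPM, casp (Caspar, an Imd inhibitor) at 94.7 TPM, tub at 91.0 TPM, key (the IKK gamma subunit) at 86.8 TPM, Tl at 78.8 TPM, Diap2 (a ubiquitin ligase of the Imd route) at 71.2 TPM and Rel at 54.1 TPM.

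**Figure D1:**
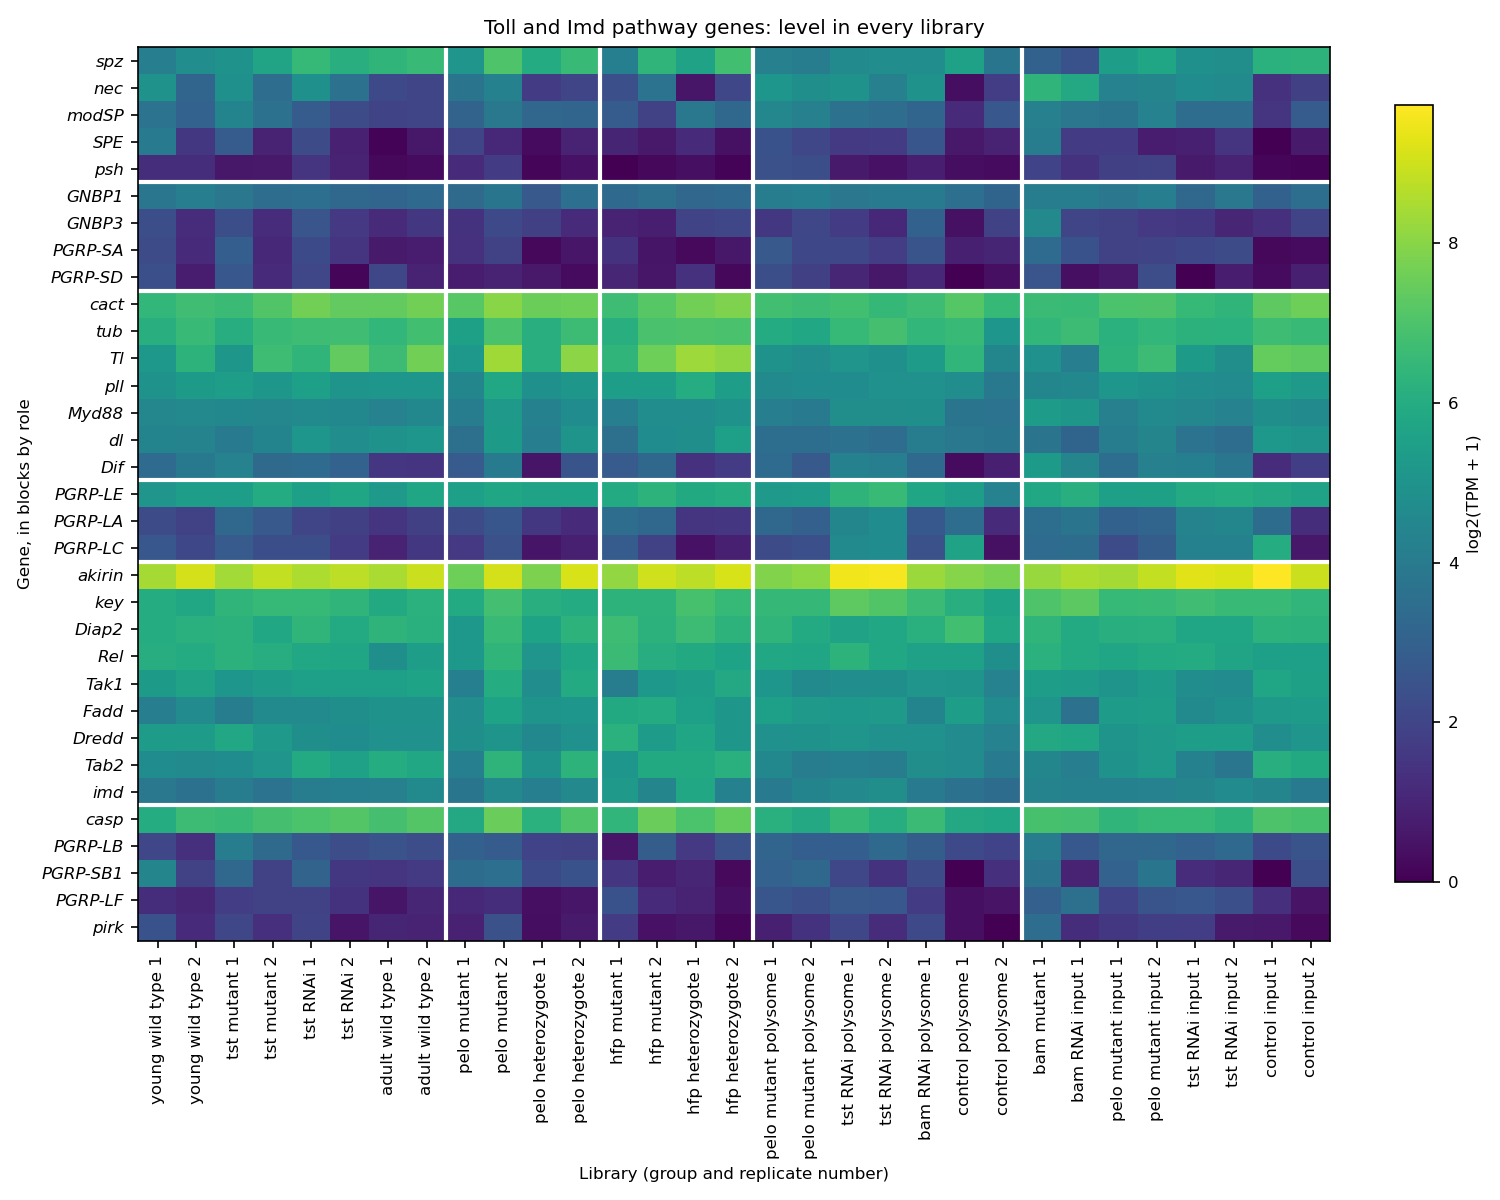
Level of the 33 genes as log2(TPM + 1) by colour, one row a gene in blocks of shared role, one column a library in blocks of shared set. The rows of cact, akirin and casp stay bright in every library, at 51.8 TPM or more, while nec, Dif and PGRP-SA are dark in the adult, heterozygote and control columns, at 4.77 TPM or less, and brighter in most of the others.

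By role the ranges of the median levels overlapped only in part. Those of the secreted recognition proteins, 0.755 to 10.8 TPM, lay below those of the Imd adaptors, kinases and transcription factor, 18.2 to 431 TPM. Receptor, adaptors and transcription factors of the Toll branch (7 genes) had medians from 8.79 TPM for Dif to 130.3 TPM for cact. Adaptors, kinases and transcription factor of the Imd branch (9 genes) ran from 18.2 TPM for imd to 431 TPM for akirin. Among the Imd receptors, PGRP-LE, an intracellular sensor, had a median of 50.3 TPM, while PGRP-LC, the main transmembrane receptor, had 4.07 TPM and PGRP-LA 5.45 TPM. The secreted recognition proteins of the Toll branch (4 genes) had 10.8 TPM for GNBP1, 2.04 for GNBP3, 1.71 for PGRP-SA and 0.755 for PGRP-SD. Of the extracellular Toll genes, spz had a median of 44.2 TPM, the serpin gene nec 12.3 and the protease genes modSP 8.41, SPE 1.07 and psh 0.607 TPM. The Imd inhibitors (5 genes) spanned 1.11 TPM for pirk to 94.7 TPM for casp, with 1.57 for PGRP-LF, 2.78 for PGRP-SB1 and 5.40 for PGRP-LB. Ordered by median, the ranges of neighbouring genes overlapped over the libraries. SPE, psh, pirk, PGRP-SD and PGRP-SB1 were each listed at 0 in 1 or 2 of the 30 libraries.

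Counts of some members could include reads of another gene. By the RefSeq annotation of Release 6, 14 of the 33 overlap another gene of the table, among them pll (3R:27251131-27253182) with TfIIA-L, cact (2L:16313036-16326207) with fzy, nec (2R:7156477-7158241) with pk, Rel (3R:9044183-9047977) with Nmdmc and PGRP-LF (3L:9349609-9351489) with UGP. The strand label reads N/A for replicate 1 of the wild type and tst groups of total mRNA, so whether strand was used in counting those is not known. Dif (2L:17413248-17433161) is also among the 14 and overlaps CG15141. It lies next to dl (2L:17436830-17450364), which encodes a related factor, without overlapping dl. Tl (3R:26799041-26842403) and spz (3R:27064990-27070070) overlap no other gene of the table.

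The balance of the neighbours dl and Dif differed widely between groups. In young wild type dl stood at 19.8 and 19.4 TPM and Dif at 9.67 and 14.1 TPM, so Dif made up 32.8 and 42.2% of the summed level of both. That share was 55.9 and 31.6% in the tst mutant and 22.2 and 21.6% in tst RNAi, against 5.71 and 5.16% in adult wild type. It was 34.9 and 28.4% in the pelo mutant against 2.59 and 13.1% in its heterozygote, and 34.9 and 24.7% in the hfp mutant against 5.55 and 4.80% in its heterozygote. Pelo mutant inputs had 38.4 and 47.0% and tst RNAi inputs 59.1 and 56.3%, against 3.73 and 7.23% in control inputs. The highest shares were those of the bam RNAi input, 72.4%, and the bam mutant, 75.7%. In each of these comparisons both libraries of the mutant, RNAi or young group lay above both libraries of the group it is set against.

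**Figure D2:**
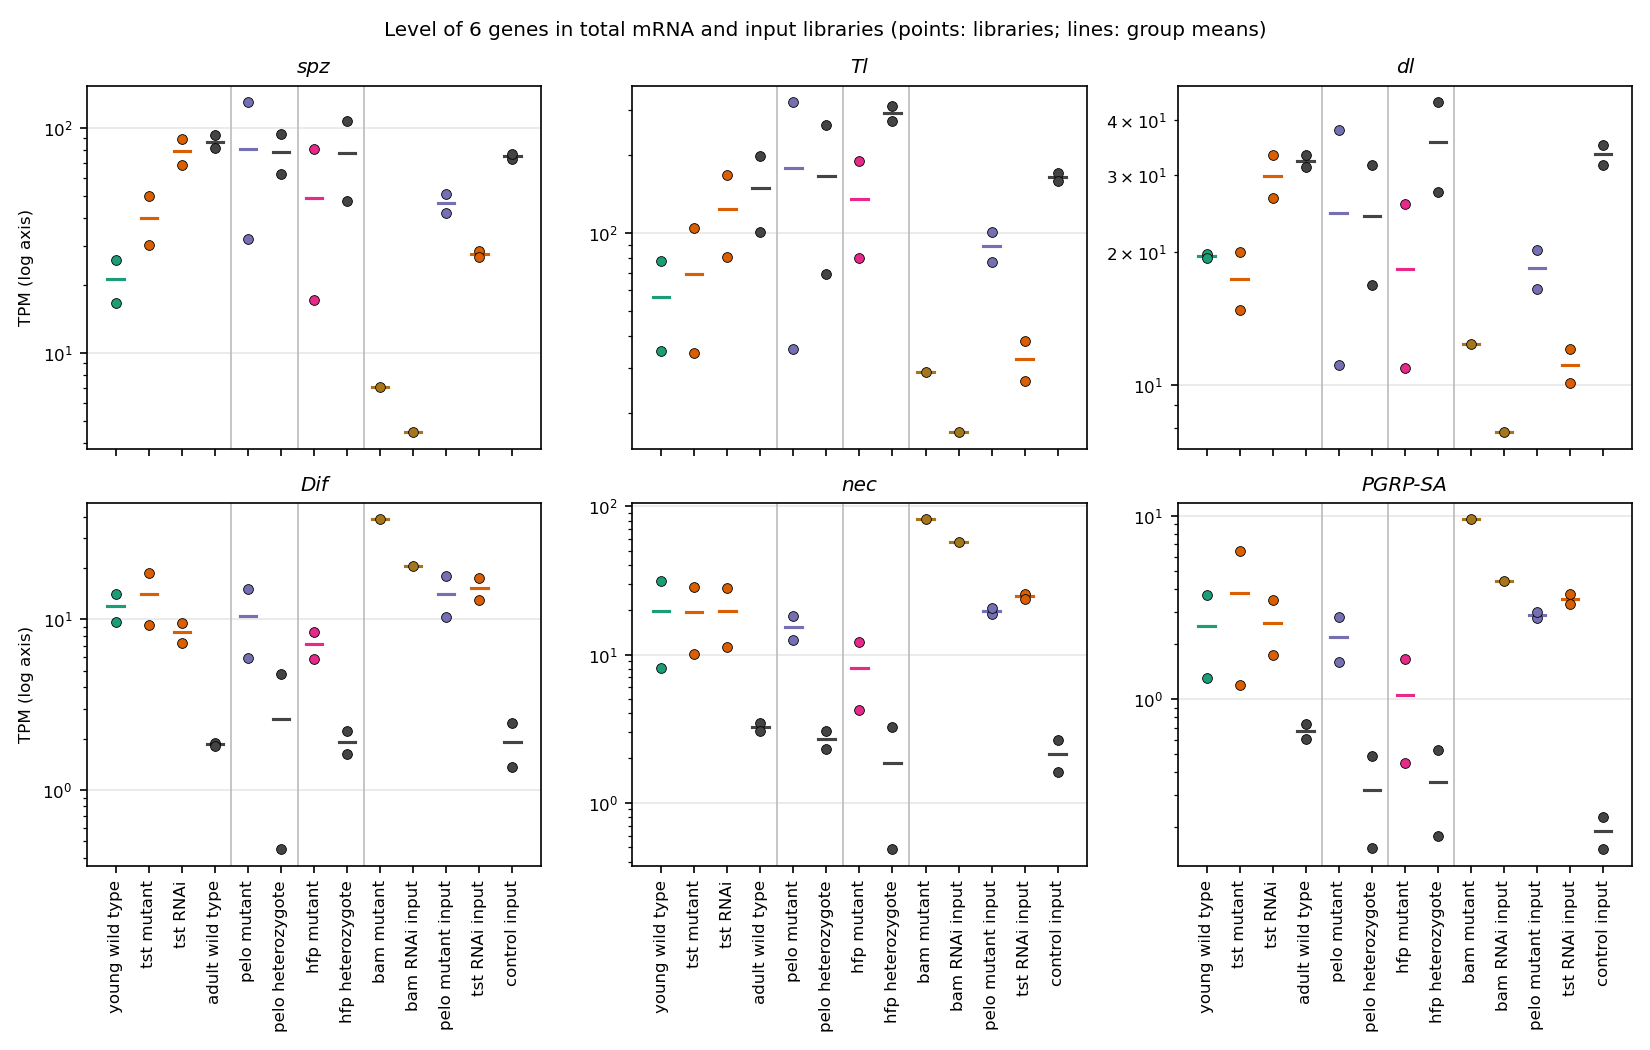
TPM (log axes) of spz, Tl, dl, Dif, nec and PGRP-SA in total mRNA and input libraries, with 1 point a library and lines at group means. Dif, nec and PGRP-SA lie lowest in the adult wild type, heterozygote and control groups, while spz, Tl and dl lie lowest in the bam RNAi input, with 4.45, 16.9 and 7.81 TPM.

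The input comparisons had a median SE of 0.217 over all genes, and their 2 control inputs differed in genotype. In tst RNAi inputs the maternal core of the Toll route fell and 2 of its immune genes, Dif and nec, rose. The receptor gene Tl stood at 38.1 and 26.7 TPM in tst RNAi inputs, against 169.9 and 159 TPM in control inputs. The ligand gene spz had 28.4 and 26.6 TPM, against 73.0 and 76.4 TPM, and dl 12.1 and 10.1 TPM, against 35.1 and 31.6 TPM. None of these groups overlapped, and the log2 fold changes were -2.33 for Tl (SE 0.21, adjusted p = 0.00013), -1.41 for spz (SE 0.17, adjusted p = 4.15e-04) and -1.51 for dl (SE 0.21, adjusted p = 8.36e-04). The inhibitor gene cact fell as well, to 89.4 and 81.3 TPM in tst RNAi inputs against 157 and 189 TPM in control inputs (log2 fold change -1.01, SE 0.15). In tst RNAi total mRNA against adult wild type these falls were not seen. There the log2 fold changes were -0.28 for Tl, -0.15 for spz, -0.12 for dl and 0.02 for cact, none of them called.

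Dif rose in tst RNAi inputs, with 17.5 and 13.0 TPM against 1.36 and 2.46 TPM in control inputs (log2 fold change 2.49, SE 0.34, adjusted p = 7.38e-04). The gene nec encodes Necrotic, a serpin that restrains the protease Persephone. It had 25.5 and 23.7 TPM in tst RNAi inputs against 1.61 and 2.63 TPM in control inputs (log2 fold change 3.06, SE 0.24, adjusted p = 8.84e-05), the largest change among the 33 genes in this comparison. PGRP-SA, which senses Gram-positive bacteria, had 3.32 and 3.76 TPM against 0.152 and 0.228 TPM (log2 fold change 1.93, SE 0.24). Of the Imd genes, Tab2, the partner of the kinase Tak1, fell to 18.1 and 13.0 TPM against 69.5 and 58.5 TPM (log2 fold change -1.99, SE 0.22), and Tak1 fell to 25.9 and 24.7 TPM against 53.2 and 45.0 TPM (log2 fold change -0.92, SE 0.19). In all of these the tst RNAi and control libraries lay apart.

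In all, 9 of the 33 genes rose and 11 fell in tst RNAi inputs, where 21.7% of 8572 genes rose and 31.7% fell. The members' median log2 fold change was 0.16, against -0.16 over all genes. By role, 5 of the 7 Toll receptor, adaptor and transcription factor genes fell (Tl, dl, cact, pll and tub) and Dif rose. Of the 5 extracellular Toll genes, nec, psh and modSP rose and spz fell. Of the 9 Imd adaptor and kinase genes, Tab2, Tak1, Fadd and Diap2 fell and Dredd rose, and imd, key, Rel and akirin did not pass the test. In all, 13 members had both tst RNAi inputs above both control inputs and 12 had both below, where 31.8% of all genes lay above and 45.4% below. The smaller changes included tub (-0.41, SE 0.15), Fadd (-0.53, SE 0.17) and Diap2 (-0.54, SE 0.14).

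Pelo mutant inputs were compared with the same control inputs, so the results of both comparisons are not independent. Here nec had 18.8 and 20.7 TPM in pelo mutant inputs against 1.61 and 2.63 TPM in control inputs (log2 fold change 2.75, SE 0.24, adjusted p = 5.48e-04), and Dif had 10.3 and 17.97 TPM against 1.36 and 2.46 TPM (log2 fold change 2.36, SE 0.34, adjusted p = 0.0035). The gene of the protease Persephone, psh, rose to 2.54 and 2.81 TPM against 0.0942 and 0.0704 TPM (log2 fold change 1.76, SE 0.25), and PGRP-SA to 2.77 and 2.99 TPM against 0.152 and 0.228 TPM (log2 fold change 1.71, SE 0.24). All 4 genes had both pelo mutant libraries above both control libraries.

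The falls of maternal genes in pelo mutant inputs were smaller in size than the rises of these immune genes. Tl had 77.0 and 101 TPM in pelo mutant inputs against 169.9 and 159 TPM in control inputs (log2 fold change -0.89, SE 0.21, adjusted p = 0.0201), and spz had 41.7 and 50.8 TPM against 73.0 and 76.4 TPM (log2 fold change -0.69, SE 0.17, adjusted p = 0.0223). For dl the values were 16.5 and 20.3 TPM against 35.1 and 31.6 TPM (log2 fold change -0.83, SE 0.21). Tab2 had 29.8 and 36.6 TPM against 69.5 and 58.5 TPM (-0.93, SE 0.22). These libraries did not overlap, but the size of each fall was below that in tst RNAi inputs (-2.33, -1.41, -1.51 and -1.99), and whether the mutant and the RNAi differ was not tested. The calls depended on the fit. A limma fit of inputs with polysomes gave adjusted p = 0.223 for Tl, 0.300 for spz, 0.0482 for dl and 0.0649 for Tab2.

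In pelo mutant inputs 9 of the 33 genes rose and 5 fell, where 14.4% of all genes rose and 16.4% fell. The others that rose were modSP (1.88, SE 0.43), PGRP-SB1 (2.23, SE 0.67), PGRP-LF (1.33, SE 0.35), pirk (1.22, SE 0.38) and PGRP-LB (0.87, SE 0.25), and casp was the fifth that fell (-0.50, SE 0.15). Both pelo mutant inputs lay above both control inputs in 13 members and below in 13, where 29.1% of all genes lay above and 42.9% below. Of the 5 Imd inhibitors 4 rose in this fit. PGRP-LB and PGRP-SB1 encode amidases that degrade peptidoglycan, PGRP-LF a decoy receptor and pirk a protein that downregulates the receptors. None of the 4 was called with quantile normalization or without either pelo mutant input, and of the 11 or 12 settings run, the reported one included, pirk was called in 3, PGRP-LB and PGRP-SB1 in 6 each and PGRP-LF in 8. PGRP-SB1 was at 7.22 and 12.6 TPM in pelo mutant inputs against 0 and 4.10 TPM in control inputs, and PGRP-LB at 8.19 and 8.53 TPM against 3.58 and 4.71 TPM. In tst RNAi inputs PGRP-LB had 7.23 and 9.09 TPM and rose (0.83, SE 0.25), while PGRP-SB1 had 1.36 and 1.07 TPM (log2 fold change -0.03, SE 0.67).

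The sizes of the input changes depend on how libraries are scaled. Setting library medians equal moved the median log2 fold change of all genes to 0.29 in tst RNAi inputs and 0.11 in pelo mutant inputs, and the members called were then 15 higher and 6 lower in tst RNAi inputs and 11 higher and 3 lower in pelo mutant inputs. The share of higher genes among all genes called was 68.3% in tst RNAi inputs and 75.2% in pelo mutant inputs under that scaling, against 40.7 and 46.6% as reported. Without control input 2 there were 15 calls in pelo mutant inputs, and without either pelo mutant input 4 and 5, while tst RNAi inputs gave 11 calls without either of their own libraries. The calls of Dif, nec and PGRP-SA in both comparisons, of psh in pelo mutant inputs and of spz, Tl, dl, cact, Tab2 and Tak1 in tst RNAi inputs held under every alternative in which the gene was tested. Without control input 1 the counts were 8 higher and 1 lower in pelo mutant inputs and 6 higher and 10 lower in tst RNAi inputs.

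Markers of other tissues moved with these genes. Muscle markers summed to 3315 to 4358 TPM in pelo mutant inputs and 5369 to 5404 TPM in tst RNAi inputs, against 361 to 461 TPM in control inputs. Hemocyte markers (12 genes) summed to 802 to 1036 and 1093 to 1241 TPM, against 532 to 625 TPM, and the hemocyte gene Hml was at 2.18 and 5.41 TPM in pelo mutant inputs and 4.89 and 4.02 TPM in tst RNAi inputs, against 0.18 and 0.19 TPM. Fat body markers (11 genes) summed to 176 to 212 TPM in pelo mutant inputs, 23.0 to 25.8 TPM in tst RNAi inputs and 3.11 to 20.2 TPM in control inputs. The sums of pelo mutant inputs rest mainly on Tsf1, at 153 and 196 TPM against 0.163 and 13.5 TPM in control inputs. Of the 6 tested, 4 rose in pelo mutant inputs and 2 in tst RNAi inputs, where 14.4 and 21.7% of all genes rose. Germ cell markers summed to 1381 to 1680 and 875 to 970 TPM, against 2196 to 2642 TPM. Follicle cell markers (10 genes) summed to 11804 to 14258 TPM in pelo mutant inputs and 2959 to 3595 TPM in tst RNAi inputs, against 14462 to 23953 TPM in control inputs. In pelo mutant inputs 1 of them rose and 1 fell, and in tst RNAi inputs 5 rose and 4 fell. Their part in the changes of Dif, nec, PGRP-SA and the maternal genes was not tested.

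In total mRNA fewer members passed the test, with a median SE of 0.472 over all genes. With quantile normalization the share of higher genes among all genes called was 57.5% in young wild type, 51.4% in the tst mutant, 62.5% in tst RNAi, 71.4% in the pelo mutant and 45.0% in the hfp mutant, against 71.5, 84.0, 92.2, 95 and 63.6% as reported. Young wild type ovaries had more Dif and psh than adult ovaries. Dif stood at 9.67 and 14.1 TPM in young and 1.89 and 1.81 TPM in adult wild type (log2 fold change 2.16, SE 0.62, adjusted p = 0.0456), and psh at 1.40 and 1.42 TPM against 0.141 and 0.203 TPM (log2 fold change 1.04, SE 0.29, adjusted p = 0.0389). These 2 genes rose and none fell, where 7.93% of 8864 genes rose and 3.16% fell. SPE, the protease that cleaves Spätzle, had 15.1 and 2.01 TPM in young and 0.061 and 0.527 TPM in adult libraries (log2 fold change 2.45, SE 0.79, adjusted p = 0.0711).

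Libraries of these groups with the same replicate number deviated together, and with that number as a block 8 of the 33 genes rose and 5 fell in young ovaries, where 19.6% of all genes rose and 17.9% fell. The 8 were Dif, nec, SPE, psh, modSP, Rel, PGRP-LC and PGRP-SB1, and the 5 were spz, Tl, cact, Tab2 and casp. For spz, 16.7 and 25.8 TPM in young wild type stood against 81.1 and 92.9 TPM in adult wild type (log2 fold change -2.01, SE 0.73, adjusted p = 0.107, with the block 0.00214). For Rel, 65.8 and 61.4 TPM stood against 27.9 and 41.0 TPM (0.89, SE 0.41, with the block adjusted p = 0.0133). The groups did not overlap in either gene. Follicle cell markers summed to 252 to 372 TPM in young wild type, against 23009 to 36232 TPM in adult wild type. Without the block 4 of the 10 fell and none rose, while 5 had a positive log2 fold change. Their part in the values of spz and the other maternal genes was not tested. In all, 14 of the 33 genes had both young libraries above both adult libraries and 9 had both below, where 31.6% of all genes lay above and 34.6% below. Without adult library 1, adult library 2 or young library 1 no member passed, and without young library 2 only 1 did.

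The tst mutant is compared with the same adult libraries. In it modSP, a protease gene that acts upstream of SPE, rose to 20.1 and 11.4 TPM against 2.94 and 3.10 TPM in adult wild type (log2 fold change 2.01, SE 0.49, adjusted p = 0.0414). It was the only member called, where 3.55% of all genes rose and 0.677% fell. Dif had 18.7 and 9.27 TPM against 1.89 and 1.81 TPM (log2 fold change 2.32, SE 0.62, adjusted p = 0.0596) and PGRP-LA 8.46 and 5.52 TPM against 1.81 and 2.54 TPM (1.32, SE 0.35, adjusted p = 0.0569). Both genes had every mutant library above the adult ones without passing. With the replicate number as a block 8 members rose and 4 fell, where 16.3% of all genes rose and 7.22% fell. The 8 were Dif, nec, modSP, Rel, PGRP-LA, PGRP-LB, PGRP-LC and PGRP-LF, and the 4 were spz, Tl, dl and Tab2. In all, 17 members had both mutant libraries above both adult libraries and 8 had both below, where 32.3% of all genes lay above and 29% below. Without tst mutant library 1 or either adult library no member passed, and without tst mutant library 2 there were 3.

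For tst RNAi total mRNA, again against adult wild type, limma called no member, where 0.936% of all genes rose and 0.079% fell. An unadjusted p under 0.05 was found for 3 members, and for 688 of all 8864 genes. The levels of nec were 28.3 and 11.3 TPM in tst RNAi against 3.46 and 3.06 TPM in adult wild type (2.16, SE 0.76, adjusted p = 0.304), and those of Dif 9.49 and 7.31 TPM against 1.89 and 1.81 TPM (1.71, SE 0.62, adjusted p = 0.344). With the block these 2 genes rose, with adjusted p = 0.00663 for nec and 0.0191 for Dif, where 4.37% of all genes rose and 0.474% fell. Among the maternal Toll genes spz was at 89.7 and 68.2 TPM in tst RNAi against 81.1 and 92.9 TPM (-0.15, SE 0.73) and Tl at 81.0 and 167 TPM against 100.5 and 198 TPM (-0.28, SE 0.96), and the groups overlapped for both genes. In all, 12 members had both tst RNAi libraries above both adult libraries and 3 had both below, where 23.4% of all genes lay above and 13.7% below.

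Fat body markers, shown here by replicate, were higher in replicate 1 of these groups. They summed to 96.9 and 19.8 TPM in young wild type replicates 1 and 2, 436 and 40.2 TPM in the tst mutant, 269 and 52.0 TPM in tst RNAi, and 10.6 and 7.06 TPM in adult wild type. SPE, PGRP-SB1, nec and PGRP-SA were higher in replicate 1 of the young, tst mutant and tst RNAi ovaries as well. Dif was so in the tst mutant and tst RNAi but not in young wild type. For PGRP-SB1 this was 20.5 and 2.77 TPM, 8.68 and 2.78 TPM, and 7.53 and 1.99 TPM, against 1.86 and 2.14 TPM in adult wild type. For nec it was 31.1 and 8.09 TPM, 28.4 and 10.1 TPM, and 28.3 and 11.3 TPM, against 3.46 and 3.06 TPM. Hemocyte markers summed to 513 to 558 TPM in young wild type, 1160 to 1530 TPM in the tst mutant and 656 to 962 TPM in tst RNAi, against 674 to 737 TPM in adult wild type. These sums rest mainly on Fer2LCH and crq. Over the 12 genes the median log2 fold change was 1.22 in young wild type, 1.62 in the tst mutant and 2.18 in tst RNAi, with 3, 1 and 3 called higher. In young wild type 1 was called lower, and negative log2 fold changes numbered 3, 1 and 4. Hml was at 5.42 and 7.85 TPM in young wild type against 0.13 and 0.11 TPM in adult wild type, but crq at 39.8 and 52.0 TPM against 156 and 201 TPM. Follicle cell markers summed to 5529 to 7190 TPM in the tst mutant and 16214 to 24176 TPM in tst RNAi, against 23009 to 36232 TPM. These follicle cell sums rest mainly on the eggshell genes Cp36, Cp38, Vm26Aa and Vm32E. Over the 10 genes the median log2 fold change was 0.91 in the tst mutant, with 6 positive, 3 called lower and none higher. In tst RNAi the median was -0.16, with 4 positive and none called. The part of all these markers in the members' values was not tested.

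**Figure D3:**
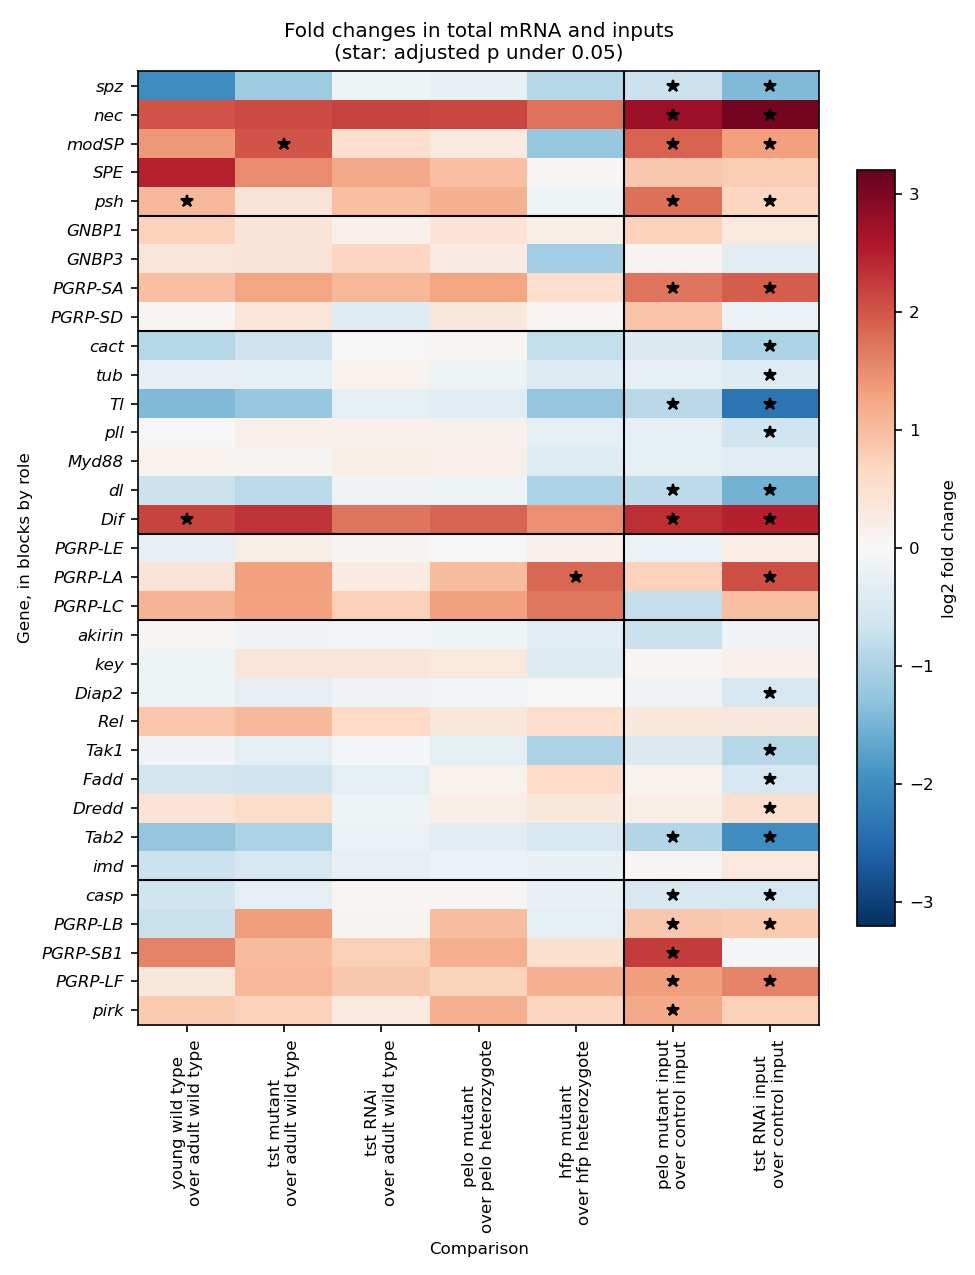
Log2 fold change of the 33 genes (rows) in 7 comparisons (columns) by colour, with a star for an adjusted p under 0.05. The Dif and nec rows are red throughout, from 1.47 to 3.06, and most stars stand in the 2 input columns, with 14 for pelo mutant inputs and 20 for tst RNAi inputs. With equal library medians tub in tst RNAi inputs turns from -0.41 to 0.036.

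In the pelo mutant against its heterozygote limma called no member, where 0.214% of all genes rose and 0.0113% fell. An unadjusted p under 0.05 was found for 6 members, and for 677 of all 8864 genes. The gene nec had 12.4 and 18.3 TPM in the pelo mutant against 2.30 and 3.04 TPM in the heterozygote (2.14, SE 0.76, adjusted p = 0.397). Dif had 5.94 and 15.1 TPM against 0.449 and 4.77 TPM (1.87, SE 0.62, adjusted p = 0.349). With the replicate number as a block these 2 genes rose and no other member was called, where 3.71% of all genes rose and 0.338% fell. Both genes had non-overlapping libraries, as had 12 members in all, each higher in the mutant and none lower, where 16.9% of all genes lay above and 3.84% below. Of the maternal genes, spz was at 32.1 and 129.7 TPM in the mutant against 62.7 and 93.7 TPM in the heterozygote and Tl at 35.7 and 319.7 TPM against 69.3 and 261 TPM. Fat body markers summed to 80.2 to 179.5 TPM in the mutant against 12.1 to 38.8 TPM in the heterozygote, hemocyte markers to 854 to 1177 TPM against 651 to 732 TPM, follicle cell markers to 7270.1 to 9944 TPM against 20551 to 20826 TPM, and their part was not tested. Of the fat body sums Tsf1 alone made up 59.6 and 112 TPM in the mutant and 4.55 and 30.6 TPM in the heterozygote.

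PGRP-LA rose in the hfp mutant, to 10.1 and 8.49 TPM against 1.83 and 1.90 TPM in the hfp heterozygote (log2 fold change 1.84, SE 0.35, adjusted p = 0.0288). It was the only member called, where 0.632% of all genes rose and 0.361% fell, and with library medians set equal, or with quantile normalization, none was called. With the replicate number as a block PGRP-LA, PGRP-LC, PGRP-LF, Dif and nec rose and Tl, cact, dl, modSP and Tak1 fell, where 5.76% of all genes rose and 4.11% fell. Its neighbour PGRP-LC had 6.10 and 2.72 TPM in the mutant against 0.391 and 0.804 TPM (1.70, SE 0.44, adjusted p = 0.106), and PGRP-LF, the next gene, 4.47 and 1.29 TPM against 0.944 and 0.317 TPM (1.14, SE 0.40, adjusted p = 0.282). All 3 had both mutant libraries above both heterozygote libraries, as did 7 members in all, where 19.8% of all genes did. Another 10 members had both libraries below, where 22.1% of all genes did, among them GNBP3 with 0.972 and 0.779 TPM against 2.98 and 3.16 TPM and modSP with 6.01 and 2.72 TPM against 13.8 and 8.64 TPM. Without either heterozygote library or mutant library 1 no member passed, and without mutant library 2 there were 3. Fat body markers summed to 50.8 to 218 TPM in the hfp mutant against 13.0 to 41.9 TPM in the heterozygote, and hemocyte markers to 705 to 1088 TPM against 439 to 733 TPM. Follicle cell markers summed to 4491 to 15090 TPM against 12572 to 17873 TPM, while 6 of the 10 had a positive log2 fold change. The part of all these markers was not tested.

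PGRP-LA (3L:9334332-9338336), PGRP-LC (3L:9338810-9348336) and PGRP-LF (3L:9349609-9351489) lie side by side, and the controls did not share 1 level of them. PGRP-LC stood at 64.2 TPM in control input 1 and 47.5 TPM in control polysome 1, against 0.527 and 0.368 TPM in the input and polysome libraries of control preparation 2. Adult wild type, labelled with the same genotype as control preparation 1, had 0.951 and 2.01 TPM. Among 7714 genes with at least 1 TPM in either control input, PGRP-LC had the second largest log2 difference of control input 1 over control input 2, 5.42, and PGRP-LA ranked 24, with 9.90 TPM against 1.38 TPM. PGRP-LF had 1.48 and 0.428 TPM in these inputs. In tst RNAi inputs PGRP-LC was at 18.5 and 18.4 TPM, between the control values, so it gave a log2 fold change of 0.97 with an SE of 1.40 and no call. In tst RNAi total mRNA it was at 4.04 and 2.33 TPM.

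**Figure D4:**
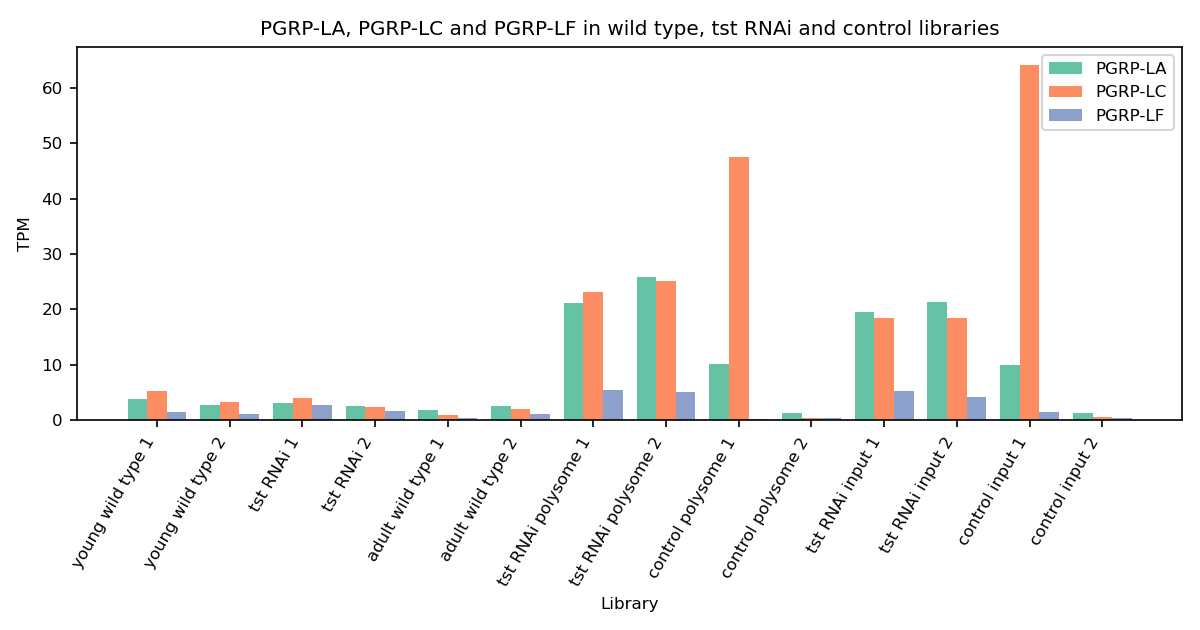
TPM of the neighbouring genes PGRP-LA, PGRP-LC and PGRP-LF (bars, axis from 0) in wild type, tst RNAi and control libraries. PGRP-LC reaches 64.2 and 47.5 TPM in input and polysome RNA of control preparation 1 and is at most 5.24 TPM in young wild type, adult wild type, tst RNAi total mRNA and control preparation 2.

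PGRP-LA rose in tst RNAi inputs, to 19.5 and 21.3 TPM against 9.90 and 1.38 TPM in control inputs (log2 fold change 2.07, SE 0.60, adjusted p = 0.021), and PGRP-LF to 5.24 and 4.18 TPM against 1.48 and 0.428 TPM (1.59, SE 0.35). In pelo mutant inputs PGRP-LA had 7.18 and 7.97 TPM, between the 2 control values (0.75, SE 0.60, adjusted p = 0.347).

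Of 62 further genes listed for the same routes, 48 were in the table. In tst RNAi inputs 11 of the 45 tested rose and 12 fell, where 21.7% of all genes rose and 31.7% fell. In pelo mutant inputs 7 rose and 4 fell, where 14.4% of all genes rose and 16.4% fell. The protease gene snk, which acts in dorsal-ventral patterning, fell to 4.12 and 2.67 TPM in tst RNAi inputs against 29.98 and 23.0 TPM in control inputs (-2.65, SE 0.26), and also fell in young wild type, with 6.53 and 5.66 TPM against 20.9 and 21.7 TPM in adult wild type (-1.65, SE 0.41). The maternal gene cad, a homeobox factor, fell to 26.9 and 25.9 TPM in tst RNAi inputs and to 76.0 and 86.9 TPM in pelo mutant inputs, against 204 and 164 TPM. GNBP2, a relative of the recognition gene GNBP1, rose to 7.99 and 8.76 TPM in tst RNAi inputs and to 11.1 and 8.12 TPM in pelo mutant inputs, against 0.928 and 1.16 TPM, and it rose in the tst mutant, with 12.1 and 7.90 TPM against 0.413 and 0.666 TPM in adult wild type (2.82, SE 0.48). Spn88Ea, a serpin gene, rose in both inputs (1.62 and 1.10), as did kay, a subunit of AP-1, in tst RNAi inputs (2.31, SE 0.27). In young wild type grass, sick and Toll-7 rose (2.48, 2.66 and 1.60). Without a block limma called none of the 47 tested in tst RNAi, pelo mutant or hfp mutant total mRNA. At an unadjusted p under 0.05 there were 1, 2 and 2 of them, where all 8864 genes gave 688, 677 and 914. Blocked by replicate number, 6 of the 47 rose and 8 fell in young wild type, and 8 rose and 3 fell in the tst mutant. In the pelo mutant 1 rose, and in the hfp mutant 1 rose and 1 fell. Under that block 19.6% of all genes rose and 17.9% fell in young wild type, 16.3% and 7.22% in the tst mutant, 3.71% and 0.338% in the pelo mutant, and 5.76% and 4.11% in the hfp mutant. On control polysomes 26 of 45 fell, eff, Pli and Mkk4 among them (-1.55, -1.44 and -1.36), and none rose, where 38.4% of all genes fell and 3.25% rose. Of all genes called there 7.81% were higher, against 70.0% with equal library medians, so this direction depends on the scaling.

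Antimicrobial peptide genes, the best known targets of both routes, were higher in the inputs. Of 12 in the table, 11 rose in pelo mutant inputs, where 14.4% of all genes rose, and 6 in tst RNAi inputs, where 21.7% did, and none fell. Defensin (Def) had 196 and 228 TPM in pelo mutant inputs and 94.4 and 166 TPM in tst RNAi inputs, against 1.94 and 2.04 TPM in control inputs. Drosomycin (Drs), a Toll target, had 514 and 1004 TPM in tst RNAi inputs against 16.8 and 2.40 TPM (6.53, SE 0.70). The Imd targets AttA, with 30.5 and 35.5 TPM, and Dro, with 34.0 and 49.7 TPM, rose in pelo mutant inputs against 1.37 and 2.06 TPM, and 0.616 and 2.46 TPM, in control inputs. In tst RNAi inputs these 2 had 0.855 and 1.26 TPM, and 2.69 and 3.53 TPM. AttB, another gene of the list, rose there, to 5.19 and 2.46 TPM against 0.352 and 0.264 TPM in control inputs (1.82, SE 0.34). In pelo mutant inputs AttB had 23.2 and 33.1 TPM and Drs 509 and 291 TPM. In young wild type IM2 and IM3 rose and Def fell, to 0.827 and 0 TPM against 16.9 and 18.6 TPM in adult wild type (-3.79, SE 0.82). Without a block limma called none in tst mutant, tst RNAi, pelo mutant or hfp mutant total mRNA. At an unadjusted p under 0.05 all 8864 genes gave 1652, 688, 677 and 914, and the 12 peptide genes 5, 3, 6 and 1. Blocked by replicate number, 2 rose and 2 fell in young wild type, and none fell elsewhere, while 4 rose in the tst mutant, 2 in tst RNAi, 3 in the pelo mutant and 0 in the hfp mutant. The shares of all genes that rose under the block were 19.6% in young wild type, 16.3% in the tst mutant, 4.37% in tst RNAi, 3.71% in the pelo mutant and 5.76% in the hfp mutant.

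Rel, which encodes the Imd transcription factor, passed the test in total mRNA only with the replicate block, in young wild type and the tst mutant. Its levels in inputs were 52.8 and 60.2 TPM in pelo mutant inputs and 62.6 and 50.6 TPM in tst RNAi inputs, against 43.3 and 43.4 TPM in control inputs (0.37 in both, SE 0.17, adjusted p = 0.124 for pelo and 0.100 for tst RNAi). All 4 values lay above both control values. GNBP1, GNBP3, imd and PGRP-SD were called in none of the 12 comparisons of total mRNA, inputs and polysomes, with or without the block. SPE was called only with it, in young wild type, and PGRP-LC only with it, in young wild type, the tst mutant and the hfp mutant.

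On control polysomes mRNA of the maternal Toll genes Tl, spz, dl and pll fell relative to input, where 38.4% of all genes fell. The maternal genes cact (-0.61) and tub (-0.82) did not pass the test, and the median of all genes was -0.55. Tl had 82.4 and 21.0 TPM in control polysomes against 169.9 and 159 TPM in the inputs of the same preparations (log2 ratio -1.95, SE 0.38, adjusted p = 0.00428). Tab2 had 24.9 and 15.3 TPM against 69.5 and 58.5 TPM (-1.66, SE 0.27, adjusted p = 0.00276). The most abundant member, akirin, had 249.5 and 219 TPM against 841 and 491 TPM (-1.46, SE 0.21). In each of these genes both polysome values lay below both input values.

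Of the 33 genes 11 fell and none rose on control polysomes, where 38.4% of all genes fell and 3.25% rose. The others that fell were spz (-1.56, SE 0.38), dl (-1.27, SE 0.26), casp (-1.14, SE 0.21), Myd88 (-1.04, SE 0.26), pll (-1.03, SE 0.26), Tak1 (-0.97, SE 0.27), PGRP-LE (-0.85, SE 0.25) and key (-0.59, SE 0.20). The members' median was -0.52 and that of all genes -0.55. Relative to the median of all genes the log2 ratios were -1.40 for Tl, -1.11 for Tab2, -1.02 for spz, -0.91 for akirin and -0.72 for dl, and above it lay PGRP-SA (1.23), SPE (1.00) and psh (0.76). With library medians set equal 2 members fell and 6 rose, and with quantile normalization 4 fell and 2 rose, where the share of higher genes among all genes called was 70.0 and 52.6% against 7.81% as reported. Tl and Tab2 fell under every alternative run, and key turned to 0.19 with equal medians and 0.060 with quantile normalization. Without preparation 2 there were 6 falls and without preparation 1 there were 14.

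**Figure D5:**
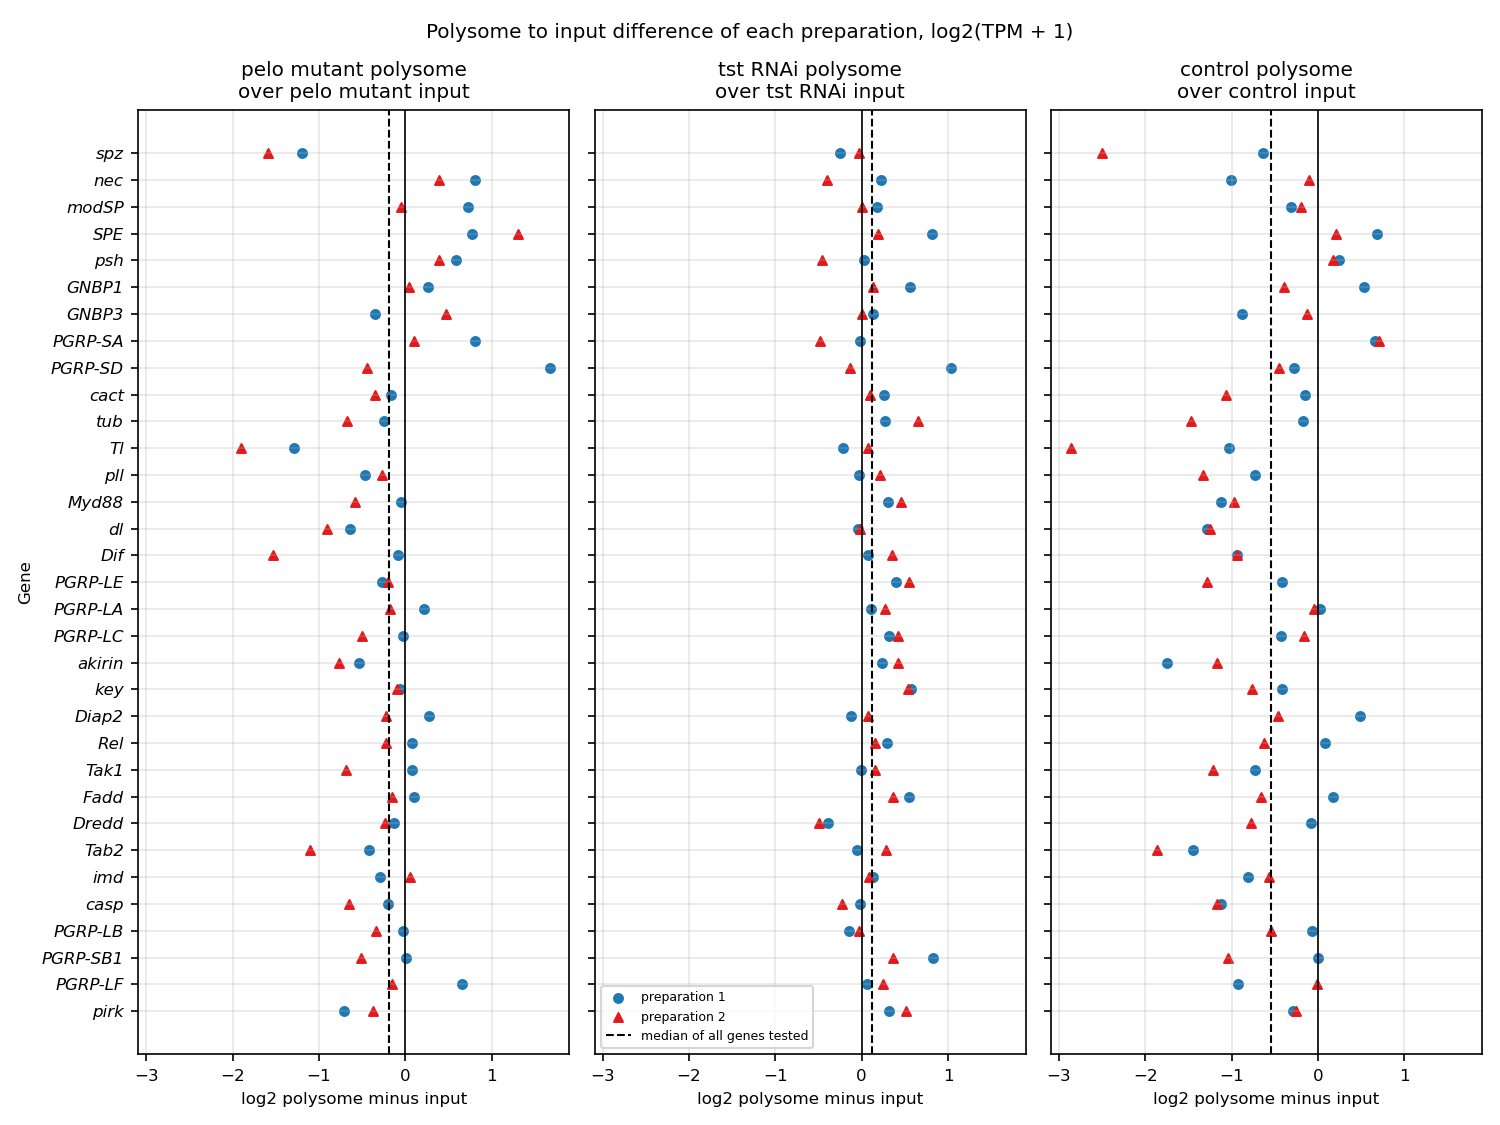
Log2(TPM + 1) of polysome minus input for each gene (rows) in each preparation (symbols) of pelo mutant, tst RNAi and control ovaries, with the median of all genes as a dashed line. Points of Tl, Tab2 and spz lie left of the dashed line in control preparations, Tl at -1.03 and -2.86, and close to 0 in tst RNAi preparations, Tl at -0.21 and 0.07.

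On pelo mutant polysomes Tl fell, to 30.9 and 26.1 TPM against 77.0 and 101 TPM in the inputs (-1.60, SE 0.38, adjusted p = 0.045). It was the only member called, where 5.3% of all genes fell and 0.607% rose, and without either preparation, without the filter, with equal medians or without preparation as a block none was called. For spz the values were 17.6 and 16.2 TPM against 41.7 and 50.8 TPM (-1.40, SE 0.38, adjusted p = 0.0595). With quantile normalization 37.2% of all genes called were higher, against 10.3% as reported. On tst RNAi polysomes limma called no member, where 0% of all genes rose and 0.035% fell. An unadjusted p under 0.05 was found on these polysomes for 1 member, and for 987 of all 8572 genes. There Tl had 32.7 and 28.0 TPM in polysomes against 38.1 and 26.7 TPM in inputs, and spz 23.8 and 25.9 TPM against 28.4 and 26.6 TPM, so polysome and input values overlapped for Tl. PGRP-LA and PGRP-LC kept high levels on polysomes, with 21.1 and 25.8 TPM and 23.2 and 25.2 TPM in tst RNAi, and 10.1 and 47.5 TPM in control preparation 1.

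The polysome ratios of tst RNAi were higher than those of control in 8 members, by the interaction term of the fit. These were Tl (1.88, SE 0.53, adjusted p = 0.0351), akirin (1.79, SE 0.29, adjusted p = 0.0166), Tab2 (1.77, SE 0.39), Myd88 (1.43, SE 0.37), PGRP-LE (1.32, SE 0.35), dl (1.24, SE 0.37), key (1.14, SE 0.28) and casp (1.02, SE 0.29). None was lower, where 22% of all genes were higher and 0.968% lower. The median difference of all genes was 0.70, and with equal library medians, with quantile normalization, or without either tst RNAi preparation no member was called. Without control preparation 1 there were 16, without control preparation 2 there were 6, and without the block 5. Between pelo mutant and control no ratio differed by limma, where 0% of all genes were called. An unadjusted p under 0.05 was found for 4 members, and for 1140 of all 8572 genes.

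The single bam libraries have no replicate, so their values are given without a test. In the bam RNAi input 7 members were at least 1 log2 unit above the higher control input and 5 at least 1 below the lower one, where 19.7% of 8773 genes were above and 10.2% below. Above stood nec with 57.8 TPM, Dif with 20.4, modSP with 13.3, PGRP-LF with 10.9, PGRP-SA with 4.41, SPE with 2.28 and psh with 1.71 TPM. Below stood spz with 4.45 TPM, Tl with 16.9, dl with 7.81, Tab2 with 16.7 and Fadd with 11.4 TPM. At 2 log2 units 4 members were above and 2 below, where 9.56% of all genes were above and 3.07% below.

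Ovaries of the bam mutant had a similar order for some of these genes, with nec at 81.5 TPM, Dif at 38.5, Tl at 28.9, dl at 12.4 and spz at 7.08 TPM, and higher levels of SPE (16.6 TPM), GNBP3 (22.51 TPM) and pirk (10.2 TPM). Fat body markers summed to 3364 TPM in the bam mutant and 101 TPM in the bam RNAi input, and muscle markers to 7536 and 8366 TPM, and their part in these levels was not tested. The library labelled bam RNAi polysomes had more osk than its input, 479.5 TPM against 2.46 TPM. The eggshell gene Cp36 was at 2533 TPM against 15.2 TPM and bam at 18.89 TPM against 3.095 TPM. Other germ cell markers went both ways, with otu at 157 TPM against 62.8 TPM and aub at 126 TPM against 249 TPM. For spz this polysome library had 26.3 TPM against 4.45 TPM in the input and for Tl 39.1 TPM against 16.9 TPM. For PGRP-LF it had 2.26 TPM against 10.9 TPM and for Dif 9.11 TPM against 20.4 TPM. In total 3 members were at least 1 log2 unit higher in that library and 4 lower, where 5.29% of all genes were higher and 10.1% lower, and the part of the differing osk, Cp36 and bam levels in these values was not tested. At 2 log2 units 1 member was higher and none lower, where 2.05% of all genes were higher and 0.331% lower.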

How the data were processed

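Poly(A) RNA-seq of 31 ovary libraries was analysed. The submitters' processing notes name HISAT2 2.0.5, featureCounts 1.5.1 and the build dm6. The annotation and the TPM formula were not given in the sources used here. Values deposited by the authors are log2 TPM, per the file headers. Raised from log2 and less 0.5, each library summed to 999984 to 1000019, so they were read as log2(TPM + 0.5). They were returned to TPM and tested as log2(TPM + 1), which understates changes of weakly expressed genes.

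Genes that reached 1 TPM in at least 2 libraries of a set were fitted with limma 3.58.1 (R 4.3.3) with a variance trend, over all 16 total mRNA libraries, over the 6 inputs, and over 12 inputs and polysomes with preparation as a block, since the labels pair each polysome sample with its input. Genotype differences of polysome ratios were interaction terms. Adjusted p values are Benjamini-Hochberg over all genes tested, with a threshold of 0.05. Deviations of libraries with the same number correlated at 0.613 to 0.762 across the wild type and tst groups of total mRNA, where the number also follows the strand label, at 0.653 between the pelo groups and at 0.717 between the hfp groups, so results with the number as a block within each set, a fit added after seeing the data, are printed for these comparisons. The procedure was tested on simulated data whose noise was capped and drawn independently for each library. These data therefore lacked the shared deviations given above and do not show how total mRNA calls hold up under them. The bam thresholds were 1 and 2 log2 units. Alternatives were other pseudocounts, filters and scalings, blocks, fewer groups and libraries left out.

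The members, lists and tests were chosen with earlier results of these data known. Named were all members, up to 5 called genes of each further list per comparison, and the targeted genes. Genes given beyond these, markers and those such as AttA and Dro in tst RNAi inputs, were chosen after their values were seen. Gene positions come from a RefSeq table of Release 6. Figures used matplotlib 3.10.9.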

Additional observations from a re-analysis of the deposited data

Results flagged for a closer look

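In 8 genes the polysome to input difference of tst RNAi exceeded that of control by the interaction term of the limma fit. The differences, in log2 units, were 1.88 for Tl, 1.24 for dl, 1.43 for Myd88, 1.77 for Tab2, 1.14 for key, 1.79 for akirin, 1.02 for casp and 1.32 for PGRP-LE. These are 8 of 33 members, where 22% of all genes were higher by the same term, and the median over all genes tested was 0.70 in the same direction. With equal library medians or quantile normalization none of the members was called.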

How the results depend on the processing

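Counts of members called are given, with higher and lower ones in parentheses. In young wild type they were 1 on log2(TPM + 0.5), 0 with at least 5 TPM, 4 (3 and 1) with equal library medians, 6 (3 and 3) with only the 2 groups compared, and 0 to 1 with 1 library left out. The tst mutant gave 2 with equal medians, 0 with quantile normalization or 2 groups, and 0 to 3 with 1 library left out. The hfp mutant gave 0 with equal medians, quantile normalization or 2 groups, and 0 to 3 with 1 library left out. For tst RNAi and the pelo mutant every such value was 0. With the replicate number as a block over all total mRNA libraries the counts were 5 in young wild type and 3 in the tst mutant. With the block within each set of groups that shares a control, chosen after seeing the data, they were 13 in young wild type, 12 in the tst mutant, 2 in tst RNAi, 2 in the pelo mutant and 10 in the hfp mutant. Over the groups of all sets the correlations of libraries with 1 number ran from -0.0727 to 0.762. The inputs share only a number (correlations -0.227 to -0.0066), and there the block gave 10 calls in pelo mutant inputs and 16 in tst RNAi inputs. Pelo mutant inputs gave 9 (6 and 3) with quantile normalization, 8 in a fit of inputs with polysomes, added after seeing the data, and 4 to 15 with 1 library left out. The tst RNAi inputs gave 13 in that joint fit and 11 to 20 with 1 left out. Control polysomes gave 8 with equal medians, 6 with quantile normalization, 9 without the preparation block and 6 to 14 with 1 preparation left out. Pelo mutant polysomes gave 0 without the filter, with equal medians, without the block or with 1 preparation left out, and 2 with quantile normalization. The ratio of tst RNAi minus control gave 0 with equal medians or quantile normalization, 5 without the block and 0 to 16 with 1 preparation left out, and that of pelo minus control 0 to 1. At 2 log2 units the bam input gave 6 and the library labelled bam RNAi polysomes 1. Single fold changes reversed for tub in tst RNAi inputs (0.036, equal medians) and for key on control polysomes (0.19 with equal medians, 0.060 with quantile normalization). Of the other single fold changes 398 kept their side of the threshold and 191 lost it in the same direction. The cause was not tested. With equal medians the median of all genes moved from -0.05 to 0.23 in young wild type, from -0.55 to 0.24 on control polysomes and from 0.70 to -0.18 in the tst RNAi ratio difference. Depth is unknown, so it gives no limit for members near 0 TPM.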
